A study of Rattus norvegicus with 6 samples.

Results

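tRF00040412 is a tRNA-derived fragment (tRF) of rat perirenal fat with a higher share of all counts on a high fat diet (HFD) than on a low fat diet (LFD). The tRFs described here are those whose numbers lie around it, from tRF00040330 to tRF00040499. Of the 170 rows in this range, 155 had a count in some library, and 64 reached 10 counts in 3 or more of the 6 libraries. These 64 are the members of the block, out of 3200 tRFs of the table that met the same minimum and 65535 rows in all. The block was selected on the diet difference of tRF00040412, and its members on their counts, so the diet values below are a description. Just inside the minimum lay tRF00040362, tRF00040433 and tRF00040475, with 10, 11 and 14 counts in the library that decided (the one ranked 3 by count). Just outside lay tRF00040458, tRF00040483 and tRF00040469 with 9, 8 and 7.

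tRFs are cut from tRNAs by nucleases, among them angiogenin and Dicer, and tend to accumulate under stress. Some bind Argonaute proteins and repress mRNAs much as miRNAs do. In adipose tissue, small RNAs of several kinds take part in the control of fat cell differentiation. Each tRF is named by its number alone. Sequences, lengths and parent tRNAs were not analysed here, so no role can be given to a single member and no sequence is shown. What the order of the numbers follows is not given in the sources used here, and neighbouring numbers are not taken as related.

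The animals were male Sprague Dawley rats, put on the HFD (40% fat) or the LFD (normal chow, according to the labels) at 6 weeks of age and kept on it for 100 days. Small RNAs of 15 to 40 nt were sequenced from 3 libraries per diet. The labels also give an age of 8 weeks and name both heart and adipose as the source, whereas the tissue used here, perirenal fat, is that of the paper, and tRF counts cannot be checked against marker genes. Nothing says that the 3 libraries of a diet came from separate rats, so the spread given below is that between libraries. The values of a diet are given below in the order of its libraries 1, 2 and 3. Total counts ranged from 5751653 to 12180060 in the HFD libraries and from 1322760 to 9729804 in the LFD libraries. They cover the 65535 rows only, and shares of all counts and ranks are taken among these rows. LFD 1 is the shallowest, with 44 of the 64 members under 10 counts. The most abundant tRF of the table, tRF00041773, which is no member, took up 41.3% to 54.0% of the HFD totals and 9.53% to 26.2% of the LFD totals, and lowers the share of every other tRF by that much.

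The members together made up 9.53%, 5.52% and 8.59% of all counts on the HFD, against 3.71%, 7.40% and 3.32% on the LFD. The diets overlapped, since LFD 2 lay above HFD 2. The mean share was 7.88% ± 2.10 on the HFD against 4.81% ± 2.25 on the LFD (SD, n = 3 each). On shares of the full totals, the higher mean on the HFD rested on tRF00040412 itself. Without it, the other 63 members made up 3.83%, 1.61% and 4.28% on the HFD against 2.98%, 6.30% and 2.86% on the LFD, with means of 3.24% ± 1.43 and 4.05% ± 1.96 (SD, n = 3 each), so that the order of the diet means was the reverse. With tRF00041773 taken out of the totals, the members made up 11.99% to 16.7% of the counts in HFD and 3.67% to 8.72% in LFD, and the diets no longer overlapped. The other 63 members were not set against these reduced totals. The reversed order of their means is thus given for the full totals only, whose shares tRF00041773 lowers more on the HFD, and no direction is read from it.

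Nearly all counts of the block belonged to tRF00040412, tRF00040417 and tRF00040429, which together held 86.9% (LFD 3) to 95.5% (HFD 2) of it. tRF00040412 held 59.8%, 70.8% and 50.2% of the block on the HFD. On the LFD it held 19.5%, 14.8% and 13.9%. It was thus the first of the 3 in every HFD library and the last in every LFD library. Each share is a ratio within a library, which no scaling factor moves. Its mean was 60.3% ± 10.3 on the HFD against 16.0% ± 3.02 on the LFD (SD, n = 3 each).

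tRF00040412 made up 5.70%, 3.90% and 4.31% of all counts on the HFD, against 0.722%, 1.09% and 0.459% on the LFD. Every HFD library lay above every LFD library. Its rank by share in the whole table was 3, 4 and 4 on the HFD, against 14, 12 and 21 on the LFD. Its log2 fold change (HFD over LFD, edgeR with TMM scaling) was 3.22 with a standard error of 0.54, or 3.58 above the median of all tRFs tested, which was −0.36. No test is given for it, because this contrast chose the block.

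tRF00040417 made up 2.00%, 1.22% and 2.19% of the counts on the HFD, against 1.60%, 2.27% and 1.23% on the LFD. The diets covered nearly the same range, and the means, 1.80% ± 0.512 and 1.70% ± 0.530 (SD, n = 3 each), differed by less than the spread between libraries. Its log2 fold change was 0.65 (standard error 0.50) with TMM and 0.08 with library size only. Set against it, tRF00040412 had 2.85, 3.20 and 1.97 times its counts on the HFD, against 0.451, 0.480 and 0.375 times on the LFD. The lower-numbered of these neighbours was therefore the more abundant in each HFD library and the less abundant in each LFD library.

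tRF00040429 made up 1.26%, 0.148% and 1.65% on the HFD, against 1.15%, 3.63% and 1.20% on the LFD. HFD 2 stood far below the other libraries and LFD 2 above them, and the remaining 4 libraries lay close together. Its log2 fold change was −0.51 (standard error 0.86), but 0.10 with upper quartile scaling, 0.13 without HFD 2 and 0.01 without LFD 2, so these data give it no direction. HFD 2 also held the lowest share of the 6 libraries in 31 of the 64 members. The same count over all tRFs tested was not taken, so this one is not read as particular to the members.

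Among the next most abundant members, the levels of tRF00040392 and tRF00040406 were also separated by diet. tRF00040392 had 1826, 1007 and 1084 CPM (the count scaled to the total of its library) on the HFD, against 655, 354 and 153 on the LFD. tRF00040406 had 1787, 991 and 1238 CPM against 256, 253 and 67.1. In both, every HFD library lay above every LFD library, with log2 fold changes of 2.53 (standard error 0.61) and 3.52 (standard error 0.67). Per 1000 counts of tRF00040412, however, tRF00040392 had 32.0, 25.8 and 25.1 on the HFD, against 90.8, 32.4 and 33.3 on the LFD. The ratio was thus lower in every HFD library, though HFD 1 lay near LFD 2, whereas that of tRF00040406, given below, overlapped.

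The members with the largest differences in the other direction, tRF00040439 and tRF00040441, were numbered after tRF00040429. tRF00040436, close before them, had 854, 28.5 and 835 CPM on the HFD and 293, 1069 and 1688 on the LFD, which overlap. Its log2 fold change of −0.60 (standard error 1.17) turned positive with upper quartile scaling (0.05), without HFD 2 (0.11) and without LFD 3 (0.35). tRF00040439 had 103, 13.7 and 112 CPM on the HFD against 163, 770 and 1919 on the LFD. Here every HFD library lay below every LFD library, and LFD 1 was near HFD 3 whereas LFD 3 was the highest by far. Its log2 fold change was −3.47 (standard error 1.22), and −2.00 without LFD 3. tRF00040441 had 24, 3 and 3 counts on the HFD, against 12, 202 and 488 on the LFD. That is 1.97, 0.275 and 0.522 CPM against 9.07, 43.5 and 50.2, again without overlap, and a log2 fold change of −4.88 (standard error 1.22).

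Other abundant members were less clearly separated. tRF00040349, with the lowest number among the 8 most abundant, had 224, 67.2 and 504 CPM on the HFD, against 415, 419 and 33.7 on the LFD. The diets overlapped, and its log2 fold change of 0.61 (standard error 0.95) was −0.13 with library size only and −0.14 without HFD 3. tRF00040383 had 119, 71.8 and 73.2 CPM against 65.0, 36.6 and 7.30, so that every HFD library lay above every LFD library, the lowest of them just above LFD 1, with a log2 fold change of 2.12 (standard error 0.78). tRF00040357 had 46.2, 26.1 and 60.9 CPM against 66.5, 24.1 and 7.09, which overlap. LFD 1 was the highest LFD library in both.

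HFD 2 was the library that stood apart in the abundant members numbered just around tRF00040429. tRF00040430 had 65.4, 4.21 and 80.7 CPM on the HFD, against 21.2, 353 and 146 on the LFD. tRF00040425 had 77.0, 13.3 and 157 CPM on the HFD, against 59.7, 205 and 82.8 on the LFD. tRF00040418 had 51.8, 3.57 and 45.5 CPM on the HFD, against 76.4, 70.2 and 17.6 on the LFD. In each of them HFD 2 was the lowest of the 6 libraries and the diets overlapped. The log2 fold changes were −1.45 (standard error 1.24), −0.05 (standard error 0.95) and −0.05 (standard error 0.95), and for tRF00040425 and tRF00040418 the sign turned with upper quartile scaling (0.60 and 0.38) and without HFD 2 (0.58 and 0.59).

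Across the block, 17 of the 64 members, tRF00040412 included, had every HFD share above every LFD share, beside 7.94% of the 3200 tRFs tested. The 2 members with every HFD share below every LFD share were tRF00040439 and tRF00040441, beside 19.3% of the tRFs tested. The remaining 45 overlapped. Over the 17 the log2 fold change ran from 1.91 (tRF00040468) to 4.43 (tRF00040352), with tRF00040369 (3.65) and tRF00040331 (3.63) next to the highest. Some of the 17, among them tRF00040352, tRF00040369, tRF00040331 and tRF00040378, had under 10 counts in every LFD library. They met the count minimum through the HFD libraries alone, which favours high fold changes, so these are not read as a result. With TMM-scaled totals these counts were 23 and 1, beside 15.9% and 6.94% of the tRFs tested. Before the number of tRF00040412 and at it, 13 of 34 members lay above and 0 below, and after it 4 of 30 lay above and 2 below. The 13 include tRF00040412 and members that met the minimum through the HFD libraries alone, so nothing is read from this split by number. In 7 of the 17 the counting intervals (exact 95% Poisson intervals, which cover counting error only) of the lowest HFD and the highest LFD library were apart, among them tRF00040352, tRF00040392, tRF00040394, tRF00040406 and tRF00040412. In the other 10 they overlapped, so for these the separation is not firm at this depth. The same count over all tRFs tested was not taken, and the 7 include tRF00040412 and tRF00040352. The intervals leave out the spread between libraries, so the separation of the 7 is not called firm either.

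edgeR called 0 of the 64 members at an adjusted p of 0.05, beside 0% of the tRFs tested, and the adjusted p of the members other than tRF00040412 ran from 0.168 to 0.985. At an unadjusted p under 0.05 it gave 20 members higher in HFD, tRF00040412 included, beside 10.9% of the tRFs tested, and 2 lower, beside 9.47%. DESeq2 called 20 members higher, beside 9.22%, and 2 lower, beside 10.4%. limma called 0 and gave 17 higher and 1 lower at an unadjusted p under 0.05, beside 11.1% and 7.12% of the tRFs tested. Because the block was chosen for this contrast, nothing is read from these counts. The median log2 fold change was 0.45 over the members and −0.36 over all tRFs tested, and −0.17 and −0.995 with library size only.

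To follow the members against tRF00040412, their counts were divided by its counts in the same library. tRF00040394 had 0.467, 0.359 and 0.399 counts per 1000 of tRF00040412 on the HFD, against 0.314, 0.316 and 0.492 on the LFD. Its ratio thus stayed within a narrow band in which the diets overlapped, while its level was 26.6, 14.003 and 17.2 CPM on the HFD against 2.27, 3.44 and 2.26 CPM on the LFD. Its value in LFD 1 rests on 3 counts. tRF00040496 had 0.222, 0.253 and 0.198 per 1000 on the HFD, against 0.105, 0.217 and 0.246 on the LFD, and its value in LFD 1 rests on 1 count. The ratio of tRF00040406 was 31.4, 25.4 and 28.7 per 1000 on the HFD, against 35.4, 23.2 and 14.6 on the LFD. These 3, with tRF00040352 and tRF00040407, had the pattern most like that of tRF00040412 over the 6 libraries by another measure, the correlation of log2(CPM + 1). The ratio of tRF00040407 was nevertheless 0.184, 0.286 and 0.157 per 1000 on the HFD, against 0.314, 0.375 and 0.380 on the LFD, without overlap. The LFD 1 value again rests on 3 counts and lies near that of HFD 2, so this separation is not firm. No coefficient is given, because the libraries fall into the 2 diets. The least alike were tRF00040441, tRF00040439 and tRF00040482, of which the last had 307, 21 and 13 counts on the HFD against 24, 311 and 180 on the LFD.

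tRF00040352 had 215, 68 and 42 counts on the HFD, against 1, 5 and 3 on the LFD. Per 1000 counts of tRF00040412 this is 0.310, 0.159 and 0.169 against 0.105, 0.0986 and 0.0671, and the diets did not overlap. The LFD ratios rest on these few counts. A ratio higher in every HFD library was found in 2 members, tRF00040352 and tRF00040473, beside 0.25% of the 3199 other tRFs tested. Both met the count minimum through the HFD libraries alone, which favours high values, so this is not read as a result. The log2 fold change of tRF00040352 was 4.43 (standard error 0.90), the highest of the members, with the same limit. Its difference from that of tRF00040412 was not tested. Over the members other than tRF00040412 the ratio to it was lower in every HFD library than in any LFD library for 47, beside 76.1% of the 3199 other tRFs tested. Since tRF00040412 was chosen for being high on the HFD, this direction is set by the divisor and nothing is read from it.

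Most of the small members came in runs, that is in stretches of consecutive numbers that all met the count minimum. There were 13 runs of exactly 3, which hold 39 of the 64 members, and outside a gap of 61 numbers after tRF00040412 the runs began 7 to 17 numbers apart. The diet difference went with the place in the run. The members at the first place had a median log2 fold change of 3.35 (2.65 to 4.43), those at the second place 0.47 (−0.05 to 1.20) and those at the third place −0.73 (−1.38 to 0.23). In all 13 runs the value fell from the first place to the second and from the second to the third. The first places hold tRF00040412, which chose the block. They also hold members that met the count minimum through the HFD libraries alone, such as tRF00040331, tRF00040352 and tRF00040369. Both favour high values at the first place, so the order of the places is a description only. This order is not particular to the block, since it was also seen in 255 of 286 runs of 3 elsewhere in the table (89.2%), where the medians were 1.21, −0.27 and −1.02.

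tRF00040352, tRF00040353 and tRF00040354 show such a run. As given above, the first had 215, 68 and 42 counts on the HFD against 1, 5 and 3 on the LFD. The second had 62, 29 and 20 against 2, 15 and 19, and the third 40, 2 and 12 against 3, 27 and 20. The first outnumbered the third in each HFD library and the third outnumbered the first in each LFD library. The same was found in 10 of the 13 runs. The exceptions were the run of tRF00040412 itself, where the first outnumbered the third in all libraries, and those that begin with tRF00040480 and tRF00040488, where the third did not outnumber the first in LFD 1. In LFD 1 the order rests on few counts, such as 1 against 3 in the run shown. No such count was taken over the runs elsewhere, so it is not read as particular to the block. At the third place HFD 2 held the lowest share of the 6 libraries in 13 of 13 runs, and in 195 of 286 runs (68.2%) elsewhere.

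The 3 places were then set against the 3 abundant members, a comparison chosen after the values were seen. For each small member the ratio to tRF00040412, tRF00040417 and tRF00040429 was taken in every library, and the one with the least varying ratio (the lowest SD of the log2 ratio over the 6 libraries, with 0.5 added to the counts) was called the nearest. All 12 members at the first place, leaving out tRF00040412, were nearest to tRF00040412. All 13 at the second place were nearest to tRF00040417, and all 13 at the third place to tRF00040429. Leaving out a library changed 3 of these 38 without HFD 1, 6 without HFD 2 and 0 without any of the other libraries. The choice lay among the 3 abundant members only. Their log2 fold changes (3.22, 0.65 and −0.51) fall in the same order as the medians of the places. Being nearest is therefore not independent of that order. It was not determined for the runs elsewhere in the table.

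Summed over the runs, the 12 members at the first place had 4.95, 3.57 and 1.68 counts per 1000 of tRF00040412 on the HFD, against 4.40, 4.04 and 3.42 on the LFD. The 13 members at the second place had 5.03, 4.09 and 2.08 per 1000 of tRF00040417 on the HFD, against 5.67, 4.30 and 4.04 on the LFD. The 13 members at the third place had 5.32, 3.60 and 2.14 per 1000 of tRF00040429 on the HFD, against 4.53, 4.63 and 4.26 on the LFD. The levels were alike for all 3 places, and HFD 3 was the lowest library each time. The run from tRF00040480 to tRF00040482 supplied much of these sums. tRF00040480 gave 1.80 of the 4.95 in HFD 1 and 2.51 of the 4.40 in LFD 1, but 0.218 of the 1.68 in HFD 3. tRF00040482 gave 2.00 of the 5.32 in HFD 1, but 0.137 of the 2.14 in HFD 3. From the lowest to the highest library these ratios spanned 2.94, 2.73 and 2.49 times.

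Set against another of the 3 abundant members, the same sums spread much further. The members at the first place had 1.21 (LFD 2) to 94.5 (HFD 2) counts per 1000 of tRF00040429, and those at the third place 0.136 (HFD 2) to 15.4 (LFD 2) per 1000 of tRF00040412. The counts behind them are small in places, with 42 for the first place in LFD 1 and 58 for the third place in HFD 2. The part of read assignment in these ratios was not tested.

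Of the 23 small members outside the runs of 3, 7 were nearest to tRF00040412, 4 to tRF00040417 and 12 to tRF00040429. The run of 4 from tRF00040406 to tRF00040409 ended as the others did, with tRF00040407 nearest to tRF00040412, tRF00040408 to tRF00040417 and tRF00040409 to tRF00040429. All members from tRF00040418 to tRF00040455, leaving out tRF00040429 itself, were nearest to tRF00040429. tRF00040439 and tRF00040441 tracked none of the 3 closely, with an SD of the log2 ratio of 1.69 and 2.43 to the nearest. Being nearest did not always mean a close match inside the runs of 3 either. There tRF00040342 had an SD of 2.47 to tRF00040417, with 0 counts in HFD 3, and tRF00040482 had 1.46 to tRF00040429.

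Counts of 0 occurred among the small members. tRF00040361, tRF00040369, tRF00040378 and tRF00040473 had 0 of 1322760 counts in LFD 1, which allows up to 2.27 CPM each (3 counts). Their lowest HFD libraries had 3.20, 4.87, 2.56 and 7.23 CPM. Only for tRF00040473 was the exact Poisson interval of that library apart from that of the highest LFD library, so the separation of the other members named here is not firm. tRF00040473 met the count minimum through the HFD libraries alone, so its separation is not read as a result either. tRF00040342 had 0 counts in HFD 3 (limit 0.522 CPM), and tRF00040433 and tRF00040475 had 0 in HFD 2 (limit 0.275 CPM).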

How the data were processed

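The authors deposited raw counts, whole numbers of reads per tRF and library that were not normalized, as 1 table of 65535 rows. Rows with higher numbers were not analysed here, and totals leave them out. How far this moves the shares, CPM and ranks is not known. The submitters' processing notes name the build Rnor_5.0. Aligner, tRNA annotation and the handling of reads that match several tRNAs were not given in the sources used here.

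Shares and CPM were taken of each library's column total. Across the table, the diet contrast was fitted with edgeR 4.0.16 (TMM, quasi-likelihood F test, Benjamini-Hochberg adjustment over 3200 tRFs, threshold 0.05) in R 4.3.3, with limma 3.58.1 (prior count 1) and DESeq2 1.42.0 as alternatives. The standard error is the log2 fold change over the square root of F. The common coefficient of variation between libraries was 83.1%. Other alternatives were 3 scalings, no minimum and a minimum of 50 counts, the replicate number as a block, other totals and each library left out. Python 3.11.15 and pandas 2.3.3 were used.

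The members and lists were chosen with earlier results of these data known. The tRFs named are tRF00040412, the 12 other most abundant members, up to 8 further members per direction whose diets do not overlap, the 5 most and 3 least like tRF00040412, and those at the edge of the minimum. tRF00040353, tRF00040354, tRF00040408, tRF00040409, tRF00040342, tRF00040455, tRF00040468, tRF00040480 and tRF00040488 were named after their values were seen.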

Additional observations from a re-analysis of the deposited data

How the results depend on the processing

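edgeR called 0 tRFs of the table and 0 members under each scaling, with limma, with a minimum of 50 counts and with each library left out (0 to 0). DESeq2 called 628 and 22, and edgeR without a minimum 48 and 0. The difference between the diets in the block's share was 3.07 percentage points (2.25 to 4.37 with a library left out) and 8.64 without the most abundant tRF in the totals. For the members without tRF00040412 it was −0.808, with the most abundant tRF kept in the totals. That in the share of the block held by tRF00040412 was 44.2 points (39.0 to 49.3 with a library left out). The 17 members above were 6 of 19 with a minimum of 50 counts (9.88% of all tRFs at that minimum) and 17 to 20 with a library left out (8.22% to 18.0% of all tRFs tested). The 2 below were 1 with TMM-scaled totals, 5 without a minimum (3.65% of all tRFs) and 1 with a minimum of 50 counts (21.1%). With a library left out they were 2 to 11, namely 11 (HFD 1 left out), 8 (LFD 3), 6 (LFD 1) and 4 (HFD 3), beside 20.7% to 34.7% of all tRFs tested. Fewer libraries overlap less by construction, and otherwise the causes were not tested.

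Of 284 log2 fold changes of 28 named members under an alternative, 266 kept their sign. With upper quartile scaling the sign turned for tRF00040429 (0.10), tRF00040436 (0.04997), tRF00040425 (0.60), tRF00040418 (0.38) and tRF00040433 (0.27), and with library size only for tRF00040349 (−0.13). With a library left out it also turned, in the ranges −0.95 to 0.13 for tRF00040429, −1.04 to 0.35 for tRF00040436, −0.14 to 1.14 for tRF00040349, −0.81 to 0.58 for tRF00040425, −0.44 to 0.59 for tRF00040418 and −0.54 to 0.45 for tRF00040433. The values without HFD 2 were 0.13, 0.11, 0.58, 0.59 and 0.45 for tRF00040429, tRF00040436, tRF00040425, tRF00040418 and tRF00040433.

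Libraries of the same number did not deviate together (correlations of −0.38, −0.32 and −0.16 across tRFs), and none correlated best with its own number. Fitted with a replicate block, edgeR called 0 tRFs and 0 members, and gave an unadjusted p under 0.05 for 238 tRFs, compared with 651 in the fit that lacks the block.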
